A study of Mus musculus with 5 samples.

Results

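Malat1, Neat1, Kcnq1ot1 and Tug1 are long non-coding RNAs (lncRNAs) known for their work in the nucleus, and their ribosome-protected fragments were described here in mESCs, mouse embryonic stem cells, a culture of cells that can give rise to every tissue of the body. The members were all transcripts of the deposited table whose Gencode gene symbol was one of these names, which gave 16 of 135276 transcripts and 4 of 53988 genes. Malat1 had 4 transcripts, Neat1 3, Kcnq1ot1 1 and Tug1 8. The genes were chosen by their values in the same contrast that is described here, so their levels and differences are given as a description, with no test.

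All libraries came from mESCs kept in medium with serum and LIF, treated with cycloheximide, which stops elongation, and the labels call every library untreated. RNase I (1.3 U, 45 min) trimmed the RNA of each lysate to the stretch a ribosome covers. For the 3 libraries of standard RIBO-seq, ribosomes were then pelleted under 30% sucrose. For the 2 libraries of AHARIBO RIBO-seq, a biotin linker was attached to nascent peptides that carry AHA, an azide-bearing methionine analogue, and the complexes were captured on magnetic beads. No cushion is described for the captured libraries, so capture and the missing cushion cannot be told apart. The study describes its standard RIBO-seq as made from the input of the capture, but whether the cells of the standard libraries had also been starved of methionine and given AHA is not given in the sources used here, and the differences below can hold that treatment too. Its methods name one line of mESCs, 46C, which carries a GFP reporter at the Sox1 gene. The number of cultures is not given in the sources used here. The labels call the libraries biological replicates without naming their cultures.

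Malat1 is an abundant RNA of nuclear speckles, bodies rich in splicing factors. Neat1 is the scaffold of paraspeckles, nuclear bodies in which RNA-binding proteins gather around its long isoform. Kcnq1ot1 is transcribed from the paternal chromosome against Kcnq1 and silences genes of that imprinted domain. Tug1 is a mostly nuclear RNA linked to gene repression, and its human counterpart holds a reading frame that opens with CTG in place of ATG, which the study expressed from plasmids in HeLa cells, a human cervical cancer line. Where these RNAs lie in the cell was not measured, and in bulk lysates fewer cells and less RNA per cell cannot be told apart.

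The difference between the methods turns on which stretch of Malat1 or Tug1 was read, so the reading frames of those stretches are shown first, from the Gencode M21 transcripts on GRCm38, minus strand. Tug1-205 is a single exon of 1612 nt at the 5′ end of the gene. From nt 36 it held a frame of 155 codons that opens with CTG, of which the first 300 nt (chr11:3649339-3649638) are printed. Capitals mark the CTG and the in-frame ATG codons 39 and 88.
Tug1-205: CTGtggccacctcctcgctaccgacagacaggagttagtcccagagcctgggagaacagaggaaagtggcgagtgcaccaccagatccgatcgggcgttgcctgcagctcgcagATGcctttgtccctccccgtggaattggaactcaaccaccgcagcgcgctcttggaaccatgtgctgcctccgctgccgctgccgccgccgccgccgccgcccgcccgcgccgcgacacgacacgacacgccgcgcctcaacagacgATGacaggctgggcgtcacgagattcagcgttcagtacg
The body of the gene was represented by Tug1-201, a spliced RNA of 6719 nt that lies downstream of Tug1-205. Its longest frame with an ATG start had 76 codons within exon 2 (chr11:3645251-3645481), and capitals mark the in-frame ATG codons.
Tug1-201: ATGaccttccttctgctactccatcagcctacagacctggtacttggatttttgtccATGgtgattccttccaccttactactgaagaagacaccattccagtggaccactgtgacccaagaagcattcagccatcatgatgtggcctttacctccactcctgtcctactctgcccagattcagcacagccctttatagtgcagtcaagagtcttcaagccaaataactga
For Malat1 the ends are shown, since they differed most from each other. Malat1-203, at the 5′ end, held an ATG frame of 30 codons in exon 1 (chr19:5802311-5802403). Malat1-204, near the 3′ end, held one of 42 codons across its exon junction (chr19:5795707-5796438, 129 nt after splicing). Capitals mark the in-frame ATG codons.
Malat1-203: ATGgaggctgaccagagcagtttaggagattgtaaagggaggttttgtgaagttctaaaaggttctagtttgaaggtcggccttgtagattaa
Malat1-204: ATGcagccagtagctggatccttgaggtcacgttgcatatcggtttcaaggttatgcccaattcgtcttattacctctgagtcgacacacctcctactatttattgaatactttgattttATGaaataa
Only 1 transcript, Tug1-205, held the whole CTG frame, and 0 windows of 30 nt from Tug1-202 or Tug1-204 fell inside it. Positions of reads within a transcript were not analysed here, so no read was placed in or outside a frame.

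The libraries held 6403651 to 9110668 reads in standard RIBO-seq and 9972892 to 11150527 in AHARIBO RIBO-seq after duplicate removal, and 3 counts stood for 0.262 to 0.476 CPM (reads scaled to a fixed library size with TMM factors). How reads that match several transcripts were counted is not given in the sources used here. Of 97 sets of transcripts with identical sequence and at least 20 counts, 94 differed by at most 5 counts in every library. Sums over the transcripts of a gene may therefore count some reads more than 1 time. All 10 mESC markers reached 1 CPM in every library, with a summed level of 3462 to 3556 CPM in standard and 3269 to 3429 CPM in AHARIBO RIBO-seq. Of the markers of other cells, 1 of 7 fibroblast feeder genes (2 at 0), 4 of 6 neuronal genes and 3 of 6 extraembryonic or endoderm genes reached 1 CPM in every library. Their summed levels in standard and AHARIBO RIBO-seq were 8.08 to 13.9 and 10.9 to 12.5 CPM for feeder genes, and 195 to 215 and 188 to 205 CPM for neuronal genes. For the extraembryonic or endoderm genes they were 13.8 to 20.8 and 12.3 to 16.5 CPM. The part of other cells in the results below was not tested.

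Malat1 stood out among these genes for its higher level after capture. Summed over its transcripts, Malat1 (ENSMUSG00000092341.3) had 22.6, 21.4 and 15.6 CPM in the standard libraries (replicates 1, 2 and 3, the order kept below) and 64.9 and 53.0 CPM in the captured ones (replicates 1 and 2). Both captured libraries lay above all standard libraries. The mean of 19.8 ± 3.75 CPM (SD, n = 3) stood against 58.9 ± 8.40 CPM (SD, n = 2), and the log2 difference (AHARIBO over standard, here and below) was 1.56 ± 0.16 (approximate SE). With duplicate reads kept, the means were 12.3 and 36.0 CPM, and the fold of 2.93 stood beside 2.97 without duplicates.

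Most of this, 73.9% ± 2.28 in standard and 78.0% ± 0.65 in AHARIBO RIBO-seq, lay on Malat1-201 (ENSMUST00000172812.2, chr19:5795690-5802672), the unspliced full-length form of 6983 nt. It had 150, 146 and 72 reads (16.8, 16.1 and 11.4 CPM) in standard RIBO-seq and 558 and 418 reads (48.8 and 41.7 CPM) in AHARIBO RIBO-seq. The log2 difference was 1.59 ± 0.11.

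The shorter Malat1 transcripts mark the ends of the gene, and the ends did not move alike. Malat1-203 (485 nt, 5′ end) had 36, 33 and 22 reads in standard and 75 and 47 in AHARIBO RIBO-seq, a log2 difference of 0.60 ± 0.20. It was 0.32 without AHARIBO RIBO-seq replicate 1 and 0.81 without replicate 2. Malat1-202 (556 nt, near the 3′ end) had 6, 7 and 4 reads in standard and 26 and 23 in AHARIBO RIBO-seq, a log2 difference of 1.69 ± 0.39. Malat1-204 (656 nt, near the 3′ end) had 9, 7 and 3 reads in standard and 61 and 45 in AHARIBO RIBO-seq, a log2 difference of 2.64 ± 0.30. In each of the 3 the groups did not overlap, with the captured libraries above, as in 17.3% of all tested transcripts. The difference was smallest at the 5′ end and largest in Malat1-204.

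**Figure D1:**
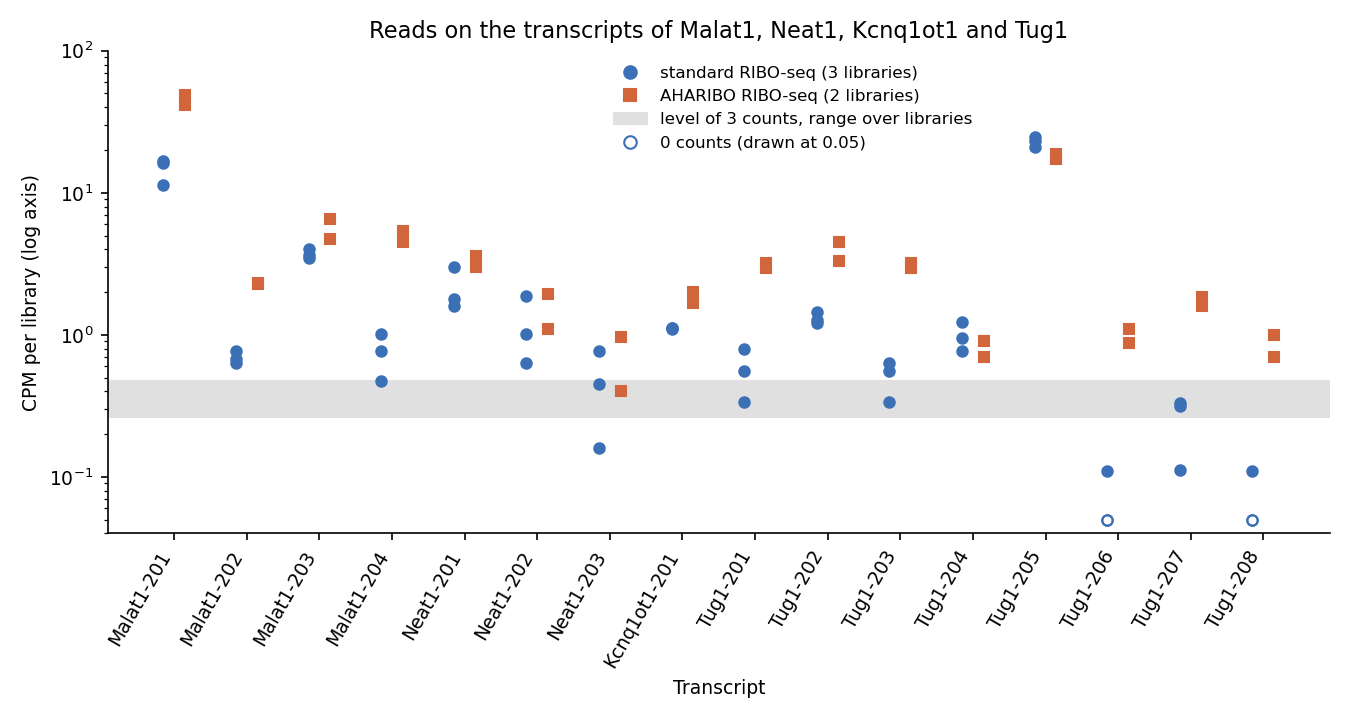
CPM of each of the 16 transcripts in each library on a log axis, with standard RIBO-seq as circles and AHARIBO RIBO-seq as squares; the grey band is the level of 3 counts, and open circles at the bottom are libraries with 0 counts. In 12 transcripts, of which 11 were tested, both squares lie above all circles, and in Tug1-205 both lie below. Among all tested transcripts, 17.3% had both captured libraries above all standard ones, and 16.5% had both below. Many of the 12 share sequence with each other and can hold the same reads, so they are not separate measurements.

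These short transcripts share 94.5% to 96.0% of their 30-nt windows with Malat1-201, so their reads can also be reads of the full-length form, and 10.4% of Malat1-204 is shared with Malat1-202. Within the gene the counts can be set against each other per nucleotide, if each read of a short transcript was also counted on Malat1-201. The rest is here Malat1-201 less all 3 short transcripts, with the stretch shared by Malat1-202 and Malat1-204 taken off for each. Malat1-203 held 3.96, 3.63 and 5.58 times the reads per nt of the rest in standard RIBO-seq, and 2.06 and 1.69 times in AHARIBO RIBO-seq. Malat1-204 held 0.733, 0.570 and 0.562 times the rest in standard RIBO-seq, and 1.24 and 1.20 times in AHARIBO RIBO-seq. The 5′ end was the densest stretch in every library, and its excess over the rest was smaller in both captured libraries.

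Per length, the 5′ end had 7.67 ± 0.58 CPM per kb (SD, n = 3) in standard and 11.6 ± 2.72 (SD, n = 2) in AHARIBO RIBO-seq. The rest covered 5286 nt and gave 1.82 ± 0.46 and 6.14 ± 0.59 CPM per kb, a fold of 3.38. Malat1-202, near the 3′ end, had a fold of 3.30, close to that of the rest. Malat1-204 gave 1.15 ± 0.41 and 7.49 ± 0.91 CPM per kb, a fold of 6.53. The ratio of summed reads for Malat1-204 was 6.32, with an exact 95% interval of 3.85 to 10.9 that covers counting error only. For the 5′ end it was 1.52, with an interval of 1.15 to 2.01. For Malat1-202 it was 3.26, with an interval of 1.85 to 6.05 that overlaps that of Malat1-204. These intervals leave out the spread between libraries. The rule fixed the gene and not the stretch, but the stretches belong to the same contrast and carry no test.

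Gencode lists a small gene inside Malat1 on the same strand, Gm27694, which had 0 reads in every library. On the opposite strand at the 5′ end, Gm37376 had 5, 4 and 2 reads in standard and 10 and 6 in AHARIBO RIBO-seq. The authors removed antisense reads, so these were counted apart from Malat1. In Malat1-201, 2.46% of 30-nt windows also occurred in other genes.

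Tug1 was the member with the highest density in standard RIBO-seq, and its 5′ transcript and its body moved in opposite directions. Summed over transcripts, Tug1 (ENSMUSG00000056579.18) had 28.1, 26.7 and 24.3 CPM in standard and 31.5 and 34.0 CPM in AHARIBO RIBO-seq, with no overlap. The transcripts of the body overlap widely, and 99.4% of the windows of Tug1-203 also lie in Tug1-201. A read of the body can therefore enter this sum several times, and the sum cannot show whether the gene as a whole rose. The log2 difference of the sum was 0.31 ± 0.12, but it was −0.33 ± 0.11 when only the most abundant transcript, Tug1-205, was taken. With duplicate reads kept the groups of the summed value overlapped (means of 18.2 and 19.8 CPM).

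Tug1-205 (ENSMUST00000193809.1, chr11:3648062-3649673) carried most of the gene's reads. It had 219, 208 and 133 reads (24.5, 23.0 and 21.1 CPM) in standard and 197 and 187 reads (17.2 and 18.7 CPM) in AHARIBO RIBO-seq. Both captured libraries lay below all standard libraries, with means of 22.9 ± 1.72 and 18.0 ± 1.02 CPM and a log2 difference of −0.36 ± 0.11. Keeping duplicates gave 15.7 ± 1.69 and 11.2 ± 0.91 CPM. Tug1-205 shared 7.26% of its windows with Tug1-204 and 2.02% with Tug1-202, and 0.19% with other genes, so its reads were largely its own.

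The 6 transcripts of the gene's body, which overlap each other widely, had few reads in standard RIBO-seq. Tug1-201 (ENSMUST00000132077.3, chr11:3639785-3647536) had 3, 5 and 5 reads in standard and 34 and 32 in AHARIBO RIBO-seq. Its log2 difference was 2.49 ± 0.38, and the ratio of summed reads was 5.75 with a counting interval of 3.14 to 11.4. Tug1-203, a spliced form with a further exon, had 3, 5 and 4 reads against 34 and 32. It shared 99.4% of its windows with Tug1-201, and the pair cannot be taken as separate measurements.

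Tug1-202, whose first exon lies inside Tug1-205, had 13, 11 and 8 reads in standard and 38 and 45 in AHARIBO RIBO-seq, a log2 difference of 1.55 ± 0.28. Tug1-207, which retains the intron between the first exons of the body in Tug1-201 and Tug1-203, had 1, 3 and 2 reads against 21 and 16, a log2 difference of 2.74 ± 0.57. For the shorter forms the standard libraries held almost nothing. Tug1-206 had 0, 1 and 0 reads against 10 and 11, a ratio of summed reads of 23.8 with a counting interval of 3.83 to 984. Tug1-208 had 0, 1 and 0 reads against 8 and 10, a ratio of 20.4 with an interval of 3.22 to 849. Tug1-208 stayed below 1 CPM in every library and was not tested.

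Tug1-204 (382 nt), which joins a first exon inside Tug1-205 to the start of the body, was the exception. It had 11, 7 and 6 reads in standard and 8 and 9 in AHARIBO RIBO-seq, and the groups overlapped (log2 difference of −0.31 ± 0.51). It shared 32.6% of its windows with Tug1-205 and 59.8% with Tug1-201. Among the small entries on the same strand inside the gene, Gm27517 had 0, 1 and 0 reads in standard and 3 and 4 in AHARIBO RIBO-seq, Gm27624 had at most 1, and Gm27937 and Gm27640 had 0.

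**Figure D2:**
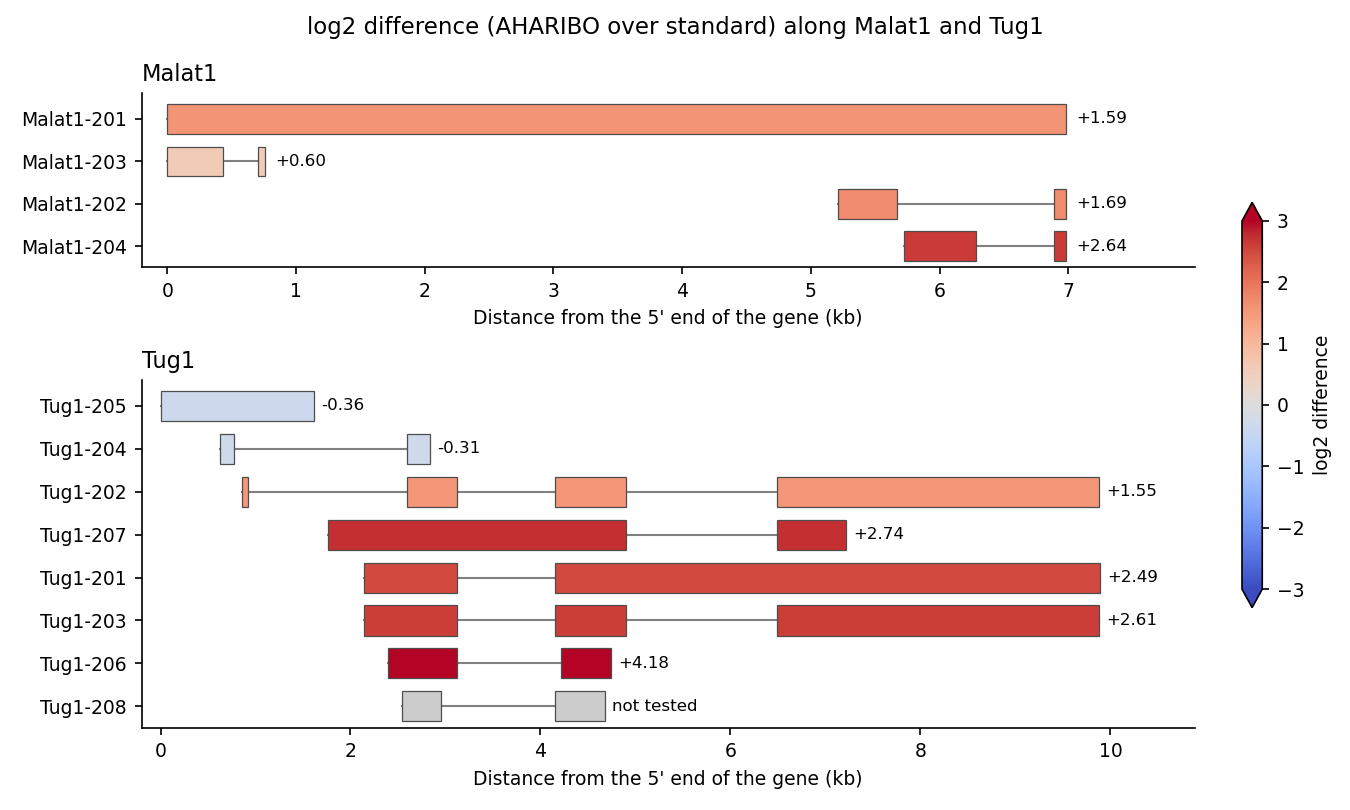
Exons (boxes) and introns (lines) of the Malat1 and Tug1 transcripts against the distance from the 5′ end of each gene in kb, coloured by the log2 difference of AHARIBO over standard RIBO-seq, which is also printed beside each transcript. The 5′ transcripts Malat1-203 (0.60) and Tug1-205 (−0.36) have lower values than transcripts of the body or the 3′ end.

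The makeup of each gene's reads was described without reference to the rest of the library. Tug1-205 made up 87.6%, 86.3% and 84.2% of the summed Tug1 reads in standard RIBO-seq, and 56.3% and 54.7% in AHARIBO RIBO-seq. The body transcripts overlap each other, so a body read can enter this sum several times, and a read of Tug1-205 mostly 1 time. The fall in its share can therefore be larger here than with each read counted 1 time. Per nucleotide, Tug1-205 held 304, 173 and 111 times the reads of Tug1-201 in the standard libraries and 24.2 and 24.4 times in the captured ones. The first 3 ratios rest on 3 to 5 reads of Tug1-201 each. Malat1-203 made up 18.9% ± 2.50 of the summed Malat1 reads in standard (SD, n = 3) and 9.62% ± 1.13 in AHARIBO RIBO-seq (SD, n = 2). For Malat1-204 the shares were 3.69% ± 0.76 and 8.46% ± 0.02. Neither pair of groups overlapped.

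**Figure D3:**
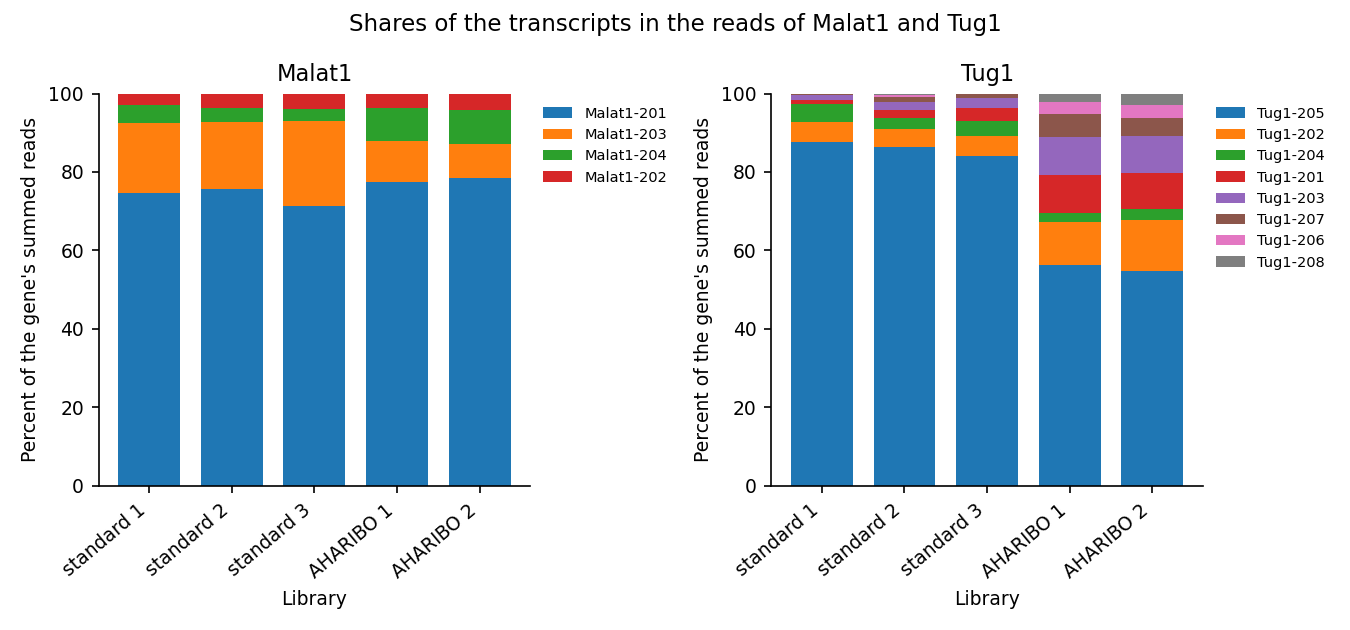
Percent of the summed reads of Malat1 and of Tug1 on each transcript, one stacked bar per library. Tug1-205 takes 84.2% to 87.6% in the standard libraries and 54.7% to 56.3% in the captured ones; reads on shared sequence can be counted in more than 1 transcript.

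Neat1 had fewer reads per length than Malat1 and Tug1, and its libraries were not cleanly separated. Summed over transcripts, Neat1 (ENSMUSG00000092274.3) had 3.26, 5.65 and 2.31 CPM in standard and 6.67 and 4.47 CPM in AHARIBO RIBO-seq, and the groups overlapped through standard replicate 2. The log2 difference was 0.55 ± 0.33. Leaving out standard RIBO-seq replicate 2 raised it to 0.98, and leaving out AHARIBO RIBO-seq replicate 1 lowered it to 0.24.

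Neat1-201 (ENSMUST00000173672.1, chr19:5824708-5845478), the long form of 20771 nt on which paraspeckles are built, had 16, 27 and 10 reads in standard and 41 and 30 in AHARIBO RIBO-seq. In CPM these were 1.79, 2.98 and 1.59 against 3.59 and 3.00, so the lower captured library lay only just above the highest standard one. Neat1-202 (3004 nt, spliced, 5′ end) had 9, 17 and 4 reads against 22 and 11, and the groups overlapped. Its log2 difference of 0.32 ± 0.40 turned to −0.16 without AHARIBO RIBO-seq replicate 1. Neat1-203 had 4, 7 and 1 reads against 11 and 4 and stayed below 1 CPM in every library.

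By the same reckoning, what remained of Neat1-201 after subtracting Neat1-202 was 17767 nt with 7, 10 and 6 reads in standard and 19 and 19 in AHARIBO RIBO-seq. The groups did not overlap there (0.053 ± 0.009 and 0.100 ± 0.009 CPM per kb), and the ratio of summed reads was 1.87 with a counting interval of 1.09 to 3.29. The 5′ stretch was denser in every library, at 7.60, 10.1 and 3.94 times the rest per nt in standard and 6.85 and 3.42 times in AHARIBO RIBO-seq. Unlike in Malat1 and Tug1, these ratios overlapped between the methods.

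Kcnq1ot1 (ENSMUSG00000101609.2, chr7:143203458-143296549) was the sparsest member. Its 1 transcript of 93092 nt had 10, 10 and 7 reads (1.12, 1.10 and 1.11 CPM) in standard and 19 and 20 reads (1.66 and 2.00 CPM) in AHARIBO RIBO-seq. Both captured libraries lay above the standard ones, which differed little among themselves. The gene's log2 difference was 0.74 ± 0.40, and the ratio of summed reads was 1.64 with a counting interval of 0.976 to 2.78, which includes 1. Of its windows, 3.23% also occurred in 4781 other genes, so repeats within it can take reads from elsewhere.

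Levels can be compared between these genes only per length. On the most abundant transcript, Tug1 had 14.2 ± 1.07 CPM per kb in standard and 11.1 ± 0.63 in AHARIBO RIBO-seq. Malat1 had 2.12 ± 0.42 and 6.48 ± 0.72, Neat1 0.102 ± 0.036 and 0.158 ± 0.020, and Kcnq1ot1 0.0119 ± 0.0001 and 0.0197 ± 0.0025. The order was Tug1, Malat1, Neat1, Kcnq1ot1 in all 5 libraries, and each step was wider than the spread between replicates. The top of this order depended on how a gene's reads were counted. With summed reads over the longest transcript, Tug1 (3.92 CPM per kb) stayed above Malat1 (2.84) in standard RIBO-seq, but in AHARIBO RIBO-seq Malat1 (8.44) lay above Tug1 (4.88).

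Among lncRNA genes with a read, Tug1 was denser than 98.5% in standard and 98.1% in AHARIBO RIBO-seq, and Malat1 than 91.4% and 96.7%. Neat1 was denser than 61.9% and 68.7%, and Kcnq1ot1 than 23.1% and 30.9%. Against protein-coding genes, Tug1 was denser than 88.7% and 86.1% and Malat1 than 60.4% and 78.4%. The median lncRNA gene with a read had 0.056 CPM per kb in both methods, and the median protein-coding gene 1.03 and 1.07.

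**Figure D4:**
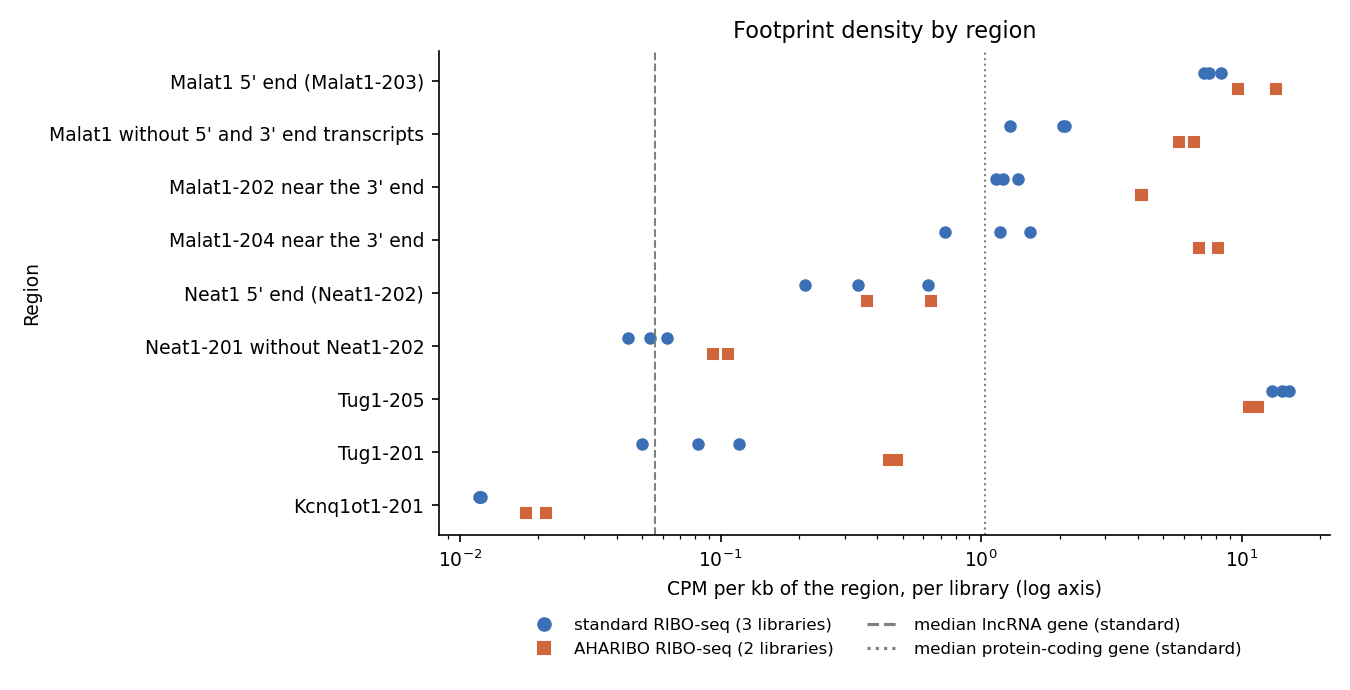
CPM per kb of region in each library on a log axis, with the median lncRNA gene (dashed) and protein-coding gene (dotted) of standard RIBO-seq. The Malat1 5′ end and Tug1-205 lie above the median protein-coding gene in all libraries. The rest of Neat1 stays at or under 0.107 CPM per kb, and Kcnq1ot1 lies below the median lncRNA gene.

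Fewer reads of these genes than of the library were lost as duplicates, that is, as reads with the same ends. Over all transcripts the loss was 43.3% to 43.8% in standard and 44.9% to 47.7% in AHARIBO RIBO-seq. For Tug1 it was 21.1%, 15.7% and 18.6% in standard and 9.09% and 11.4% in AHARIBO RIBO-seq. Malat1 lost 7.80% to 11.4% and 8.26% to 14.4%, Neat1 at most 11.8% and Kcnq1ot1 at most 16.7%. Copies made by PCR and separate fragments with the same ends cannot be told apart in these reads. No genes of like read density were set beside the members, so whether the lower loss is particular to them was not tested.

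In the fit over all transcripts (edgeR's quasi-likelihood test), 14 of the 16 members passed 1 CPM in at least 1 library. Of these 14, 8 had an adjusted p under 0.05 and were higher in AHARIBO RIBO-seq, where 2.27% of all tested transcripts were, and 1 was lower (Tug1-205), where 2.24% were. Both captured libraries lay above all standard ones in 11 of the 14, against 17.3% of all tested transcripts, and below them in 1, against 16.5%. Of the 8, 5 reached 1 CPM in AHARIBO libraries only, so that their direction was fixed by the limit on low values. Nothing is read from these counts, since the same contrast chose the genes. DESeq2 called 308 of the 15035 transcripts to which it gave an adjusted p. It gave an adjusted p for 2 of the 14 and called 1 of these, Malat1-201, while Tug1-205 was not called. Tug1-205 also lost its call without standard RIBO-seq replicate 1 (log2 difference of −0.31) or 2 (−0.36), without AHARIBO RIBO-seq replicate 1 (−0.30) and with library size in place of TMM (−0.33). Of the 16 members, 13 reached 1 CPM in an AHARIBO library and 9 in a standard one. The same counts over all transcripts are not given here, so nothing is read from this.

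In the fit of gene sums, 1 of the 4 genes (Malat1) was called higher, where 0.325% of 20289 genes were, and 3 of 4 had no overlap with the captured libraries above, where 17.7% of genes did. By the most abundant transcript of each gene, Malat1 was again the 1 gene called higher, beside 2.57% of genes called higher and 1.57% called lower. The fits differ in size, with 89 genes called from sums and 969 from the most abundant transcripts.

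Against other lncRNA genes, the members lay in the upper part of the distribution. The same contrast chose them, so this place is a description and nothing is read from it. The 1301 lncRNA genes tested had a median log2 difference of −0.12, beside 0.01 for all genes. Malat1 ranked 22 of these 1301 from the top, Kcnq1ot1 105, Neat1 154 and Tug1 259. The rank of Tug1 rests on the sum, which can hold body reads several times and whose sign turned when only Tug1-205 was taken.

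**Figure D5:**
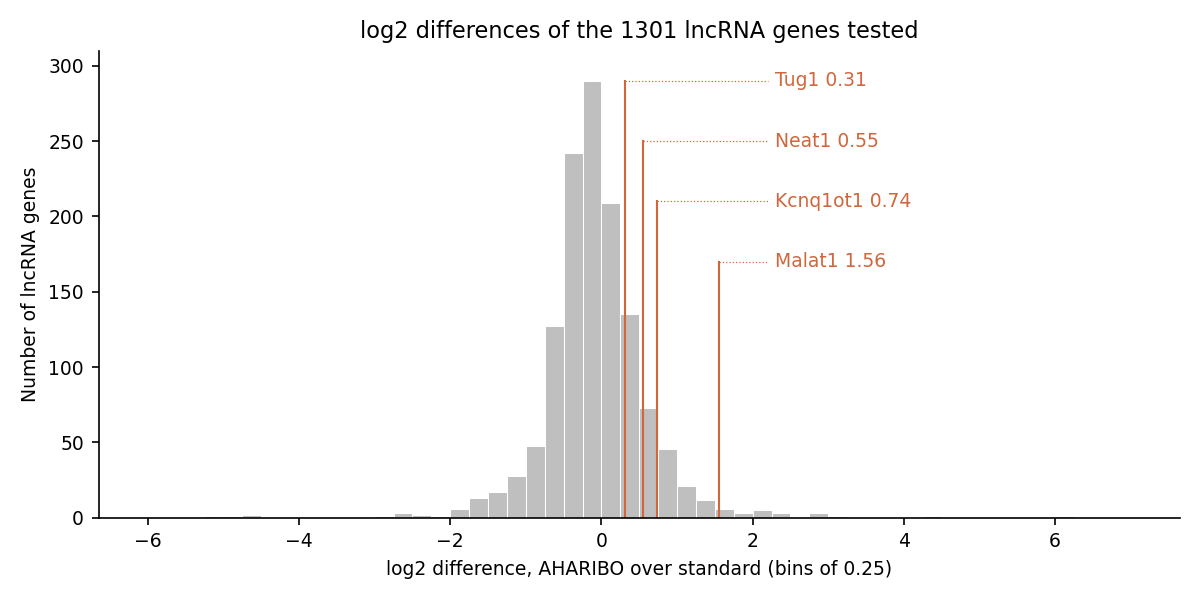
Number of lncRNA genes in each bin of 0.25 of the log2 difference between AHARIBO and standard RIBO-seq, for the 1301 lncRNA genes tested on gene sums. Vertical lines mark Tug1 (0.31), Neat1 (0.55), Kcnq1ot1 (0.74) and Malat1 (1.56), all to the right of the median of −0.12. These genes were chosen from this contrast, so their place is a description.

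The proteins and genes tied to these RNAs were then examined by lists, which were drawn up with earlier results of these data known and are no independent check. By edgeR on gene sums, 0.325% of all genes were called higher and 0.113% lower, and 14.5% had an unadjusted p under 0.05. By DESeq2, 2.05% of the 7308 genes given an adjusted p were called higher and 2.12% lower. Of 22 paraspeckle proteins tested, edgeR called 0, 4 had an unadjusted p under 0.05, and DESeq2 called 2 lower, Ewsr1 and Dazap1. The median log2 difference was −0.01. Hnrnpk, an RNA-binding protein with the highest level in the list, had 2717 CPM in standard and 2736 CPM in AHARIBO RIBO-seq. Of 21 nuclear speckle proteins, 0 were called, 10 had an unadjusted p under 0.05, and DESeq2 called Srrm1 higher and Srsf1 and Srsf2 lower. The median was 0.05. Srsf5, a splicing factor, had 986 and 905 CPM, and Son, a core protein of speckles, 661 and 686 CPM.

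By the most abundant transcript, which called 2.57% of all genes higher and 1.57% lower, 1 of the 22 paraspeckle genes was higher (Matr3, log2 difference of 0.28) and 2 were lower (Ewsr1 at −0.25 and Dazap1 at −0.34). Of the 21 speckle genes 2 were higher and 1 lower, namely Prpf4b (0.48), Sf3b1 (0.26) and Srsf2 (−0.29). All 6 differences were smaller than those of Malat1. Of the 3 factors that act on the Malat1 3′ end, 0 were called by either tool, and 0 had an unadjusted p under 0.05. Elac2, the nuclease that cuts the 3′ side of the tRNA-like end, had 176 and 179 CPM, and Trnt1, which adds CCA to such ends, had 105 and 109 CPM.

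In the Kcnq1 imprinted domain 11 of 13 genes were tested and 0 were called, with 2 at an unadjusted p under 0.05 and 1 called lower by DESeq2, Cdkn1c, of 7 given an adjusted p. Their median log2 difference was −0.09. Cd81 had 258 and 241 CPM, and Nap1l4, a histone chaperone, 158 and 192 CPM. By the most abundant transcript, 1 of 12 genes tested was lower, beside 1.57% of all genes: Cdkn1c, a cyclin-dependent kinase inhibitor expressed from the maternal chromosome, with a log2 difference of −0.41.

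Genes within 50 kb of a member gave 0 calls by edgeR, and 0 by DESeq2 among 3 given an adjusted p, with 8 of 30 tested, 1 at an unadjusted p under 0.05 and a median of −0.20. Morc2a, which codes for a chromatin protein and starts inside Tug1-205 on the opposite strand, had 91.0, 86.5 and 78.4 CPM in standard and 110 and 98.9 CPM in AHARIBO RIBO-seq. Its log2 difference was 0.29 ± 0.10 with an adjusted p of 0.235 (edgeR), and lay on the other side of 0 from Tug1-205. Frmd8, the nearest coding gene to Neat1 on its own strand, had a log2 difference of −0.24 ± 0.12 with an adjusted p of 0.400 (edgeR).

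Other lncRNAs were taken as 2 lists. Of 12 further nuclear lncRNAs tested, 0 were called on gene sums and 3 had an unadjusted p under 0.05. DESeq2 called 1 of the 3 to which it gave an adjusted p higher, Rian. The median log2 difference of the list was 0.23, and the values ran from −1.62 to 1.03. Rian, an imprinted RNA that hosts small nucleolar RNAs, had 18.4, 24.9 and 11.6 CPM in standard and 38.6 and 37.6 CPM in AHARIBO RIBO-seq. Its log2 difference was 1.03 ± 0.23 with an adjusted p of 0.115 (edgeR). The call depended on the fit. Rian was called with a block for the replicate number, without the filter on low counts and without standard RIBO-seq replicate 2. These fits called 210, 884 and 50 genes in all. By its most abundant transcript it was higher, with a log2 difference of 0.89 and an adjusted p of 0.00828 (edgeR). Lncenc1, a lncRNA of naive stem cells, had 129 ± 21.9 and 124 ± 3.10 CPM.

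Of 18 cytoplasmic lncRNAs or hosts of small nucleolar RNAs, 2 rose on gene sums (edgeR) and 0 fell, beside the 0.325% and 0.113% of all genes, with a median of 0.22. Both were snoRNA hosts, and DESeq2, which gave an adjusted p to 8 of the 18, called 1 of them, Snhg1. Snhg20 had 9.09, 12.4 and 5.39 CPM in standard and 22.4 and 26.5 CPM in AHARIBO RIBO-seq, a log2 difference of 1.42 ± 0.25 (adjusted p of 0.0478, edgeR). Snhg1 had 124, 105 and 111 CPM in standard and 157 and 198 CPM in AHARIBO RIBO-seq, a log2 difference of 0.65 ± 0.11 (adjusted p of 0.0478, edgeR). Both calls were close to the threshold: leaving out 1 library kept 0 or 1 of them, and with standard RIBO-seq replicate 1 or AHARIBO RIBO-seq replicate 2 left out both were lost. Both were also lost when 1 CPM was asked of at least 2 libraries, and Snhg1 with the size factors of DESeq2 in edgeR. Leaving out 1 library gave log2 differences of 0.46 to 0.81 for Snhg1 and 1.18 to 1.72 for Snhg20. Keeping duplicates gave 0.87 for Snhg1 and 2.65 for Snhg20. Gas5, the host with the highest level, had 288 ± 24.4 and 290 ± 13.4 CPM. With duplicate reads kept 4 were called higher, beside 1.1% of all genes: the same pair with Snhg12 and Mir17hg.

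By the most abundant transcript, 7 of 19 genes of this list were higher and 1 lower, beside 2.57% and 1.57% of all genes. The higher ones were Snhg20 (log2 difference of 1.48), Snhg1 (0.73), 1700020I14Rik (1.63), Mir17hg (1.10), 2900097C17Rik (0.94), Snhg3 (0.65) and Snhg12 (0.58). Mir17hg is the host of a microRNA cluster, and Snhg3 and Snhg12 are hosts of small nucleolar RNAs. The lower one was a further snoRNA host, Snhg6, at −0.62 with an adjusted p of 0.0497 (edgeR).

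Structured small RNAs (all snoRNA, snRNA, scaRNA and misc_RNA genes) were the longest list and had the most calls. Of 343 tested, 24 rose and 0 fell on gene sums, beside 0.325% and 0.113% of all genes. The share called was smaller than among the cytoplasmic lncRNAs and snoRNA hosts, where 2 of 18 were called. Of the 343, 114 reached 1 CPM in AHARIBO libraries only, and had to differ in that direction to be tested; 1 of these, Gm25492, was among the 24. The count depended on the fit. With duplicates kept 118 were called higher and 0 lower, beside 1.1% of all genes, and by the most abundant transcript 125 of 551 were higher and 0 lower, beside 2.57%. DESeq2 called 8 of the 44 to which it gave an adjusted p, and 8 to 16 were called when 1 library was left out. Gm25492 had 3, 1 and 1 reads in standard and 24 and 31 in AHARIBO RIBO-seq, a ratio of summed reads of 12.7 with a counting interval of 5.13 to 40.7. Among the rest of the 24, the largest differences were those of Snora7a (2.69 ± 0.24), Snora61 (2.23 ± 0.32) and Gm26023 (2.01 ± 0.29). Snora7a, a guide of RNA pseudouridylation, had 1.23, 1.66 and 1.23 CPM in standard and 8.20 and 9.94 CPM in AHARIBO RIBO-seq. The genes of highest level among the 24, named here after their values were seen, were Rn7s1 and Rn7s2, copies of the RNA of the signal recognition particle, which binds ribosomes in the cytoplasm. Rn7s1 had 81.2 ± 8.97 and 153 ± 33.4 CPM. Many genes of this list are near-identical copies, and their values are not independent.

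The same RNAs took a larger part of the captured libraries. snoRNA genes held 0.0602% ± 0.0031 of the reads in standard and 0.0928% ± 0.0105 in AHARIBO RIBO-seq, and misc_RNA genes 0.0492% ± 0.0037 and 0.0992% ± 0.0149, with no overlap in either. For snRNA genes the groups overlapped, at 0.148% ± 0.011 and 0.176% ± 0.026.

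The genes with the most similar pattern over the 5 libraries were sought for each member among genes of like level, by the root mean square difference of centred log2 values. For Malat1, over 5179 genes, these were Gm24146 (0.205) and Rn7sk (0.208), both misc_RNA genes. Rn7sk, the RNA that holds back a transcription elongation kinase, had 33.2, 38.4 and 31.0 CPM in standard and 84.4 and 84.9 CPM in AHARIBO RIBO-seq. For Neat1, over 4549 genes, they were Terc (0.070), the RNA template of telomerase, and Gm37494 (0.094). For Kcnq1ot1, over 4486 genes, they were Gm21009 (0.036) and Snai3 (0.067), both near 1 CPM. For Tug1, over 5205 genes, they were the coding genes Depdc1b and Tmem38b (0.019 each), with Depdc1b at 38.1, 35.1 and 31.9 CPM in standard and 41.9 and 45.6 CPM in AHARIBO RIBO-seq.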

How the data were processed

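Ribosome-protected fragments of mESCs were compared between AHARIBO (2 libraries) and standard RIBO-seq (3 libraries). Reads were trimmed by the authors with Trimmomatic 0.36, those under 20 nt or matching rRNA or tRNA were discarded, and fragments of 25 to 35 nt (single-end, 50 bp) were aligned with STAR, default settings, to transcripts of Gencode M17. Antisense and duplicate reads were removed. The deposited values are counts of reads per transcript, not normalized, with and without duplicates; the version without duplicates was used, as in the methods. How reads matching several transcripts were counted is not given in the sources used here.

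CPM were computed with TMM factors over all transcripts (edgeR 4.0.16, R 4.3.3), or over gene sums. Features with at least 1 CPM in at least 1 library were tested by quasi-likelihood in edgeR with no block for the replicate number, and Benjamini-Hochberg adjustment over all features. Approximate standard errors are the log2 difference over the root of F. As an alternative, DESeq2 1.42.0 was run; a missing adjusted p stayed missing. Both were tested on simulated data. Gene names and lncRNA genes came from Gencode M21 (GRCm38), which held 99.8% of the deposited transcript identifiers; shared sequence was counted in windows of 30 nt. Ratios of summed reads carry exact 95% intervals. PCR reads without molecular identifiers are not independent molecules, so these intervals and the floor of 3 counts cover counting error only.

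The members and the gene lists were chosen with earlier results of these data known. The text names the members, the genes called in each list (up to 4 in each direction, or the 2 of highest level where none was called), and the 2 genes closest in pattern to each member (1 gene of the lists is not reported here), within 2-fold of its level and on the log2(CPM + 0.5) scale. List genes called by DESeq2, by the most abundant transcript or with duplicates kept were named after their values were seen, outside the list of small RNAs. Gene sums were compared with the most abundant transcript of each gene. Cell type markers served as a check of the cells. Alternatives covered the test, normalization, filter, duplicates, the block and leaving out each library.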

Additional observations from a re-analysis of the deposited data

How the results depend on the processing

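Of 52 recomputed log2 differences of the 4 genes, 47 stayed within 1 SD of the libraries, 4 moved further and 1 changed sign. This count depends on how large the SD was: Neat1 moved 0 times over 0.24 to 0.98, and Kcnq1ot1 3 times over 0.62 to 0.85. Of 162 for the transcripts, 136 stayed within 1 SD, 25 moved and 1 changed sign. The sign changes were those of Tug1 with its most abundant transcript (−0.33) and of Neat1-202 without AHARIBO RIBO-seq replicate 1 (−0.16; leaving out each library gave −0.16 to 0.84). Keeping duplicates gave 0.62 for Kcnq1ot1 and 0.12 for Tug1. Leaving out each library gave 1.42 to 1.69 for Malat1, 0.24 to 0.98 for Neat1, 0.62 to 0.85 for Kcnq1ot1 and 0.25 to 0.37 for Tug1.

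The number of calls depended on the fit far more than these differences did. Transcripts called went from 3021 to 308 with DESeq2 (which gave an adjusted p to 15035 transcripts and 7308 genes), 1792 with a replicate block and 510 to 3829 when 1 library was left out. Genes called went from 89 to 305 with DESeq2, 884 without a filter, 265 with duplicates kept, 210 with a replicate block, 969 by the most abundant transcript and 41 to 68 when 1 library was left out. For genes of the lists, 26 calls became 16, 98, 122, 40, 141 and 8 to 17 in the same order. Fewer libraries, or more genes tested, are part of some of these settings; the cause of the other changes was not tested. Of the members, 8 transcripts higher and 1 lower were called with the replicate block as without it; without AHARIBO RIBO-seq replicate 1 these were 5 and 0. Whether same-numbered libraries share a culture is not given in the sources used here, and no pairing was assumed. Residuals correlated at 0.06 for replicate 1 and −0.28 for replicate 2. With 2 captured libraries the residuals of the pair mirror each other, so these values cannot show whether cultures were shared. Standard RIBO-seq replicate 3, which has no captured partner, gave −0.31 and 0.31. Low depth limits Kcnq1ot1, Neat1 and the Tug1 body, where a library held at most 45 reads per transcript.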
